A study of Mus musculus with 93 samples.

Results

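The genes described here are the mouse Wnt ligands, the frizzled receptors and the secreted frizzled-related proteins (Sfrp genes). They were taken from the annotated gene table as every protein-coding gene whose symbol is Wnt, Fzd or Sfrp followed by a number and, for some ligands, a letter. This gave 33 of 30235 genes, made up of 19 Wnt ligands, 10 frizzled receptors and 4 Sfrp genes. RNA-seq had been performed on posterior eyecups, which the series defines as eyes from which lens and retina were removed, and on neural retinas, all from untreated female mice. Mice were either Efemp1ki/ki, homozygous for a knock-in at Efemp1 (the gene for the matrix protein fibulin-3), or wild type (Wt, written Efemp1+/+ in the series design). By the series title these mice model Doyne honeycomb retinal dystrophy, which is inherited and affects the macula. Efemp1ki/ki eyecups numbered 8 libraries at 3 months, 8 at 9 months and 7 at 17 months, and Wt eyecups numbered 6, 8 and 8. Retinas numbered 8 libraries in each of the 6 combinations of genotype and age. The labels name neither the altered base of the knock-in nor the background strain, and they do not tie each library to its own mouse, so p-values measure the spread between libraries.

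Wnt proteins are lipid-modified secreted signals that bind the cysteine-rich domain of frizzled receptors on a receiving cell. With the co-receptors Lrp5 or Lrp6 this stabilises β-catenin, which enters the nucleus and acts with TCF/LEF factors, while other ligand and receptor pairs act without β-catenin on cell polarity and movement. Sfrp proteins carry a domain like that of the frizzleds and bind Wnt proteins outside the cell. In the mouse eye the pathway is known for patterning the optic cup and ciliary margin, for regression of the hyaloid vessels and for growth of the retinal vessels through norrin and Fzd4.

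The 45 eyecup libraries held 14236127 to 35297627 estimated counts each (median 19982911), and the 48 retinal libraries 9218127 to 37475492 (median 16813522). Efemp1 itself did not differ in RNA level between genotypes by the test, at -0.07 ± 0.08 (log2 fold change Efemp1ki/ki over Wt, mean of the 3 ages, SE; adjusted p = 0.734) in the eyecup and 0.00 ± 0.05 (adjusted p = 0.996) in the retina. The eyecup libraries were not pigment epithelium and choroid alone. The summed level of 12 ocular surface epithelium markers, among them the corneal and conjunctival keratins Krt12, Krt5 and Krt13, was 21300 to 60200 CPM (counts scaled to library size) in single eyecup libraries, against 263 to 601 CPM in retinas. The 11 retinal pigment epithelium markers summed to 694 to 2690 CPM in eyecups and to 783 to 1060 CPM in retinas. Among them Rlbp1 is also on the list of Müller glia markers and Trpm1 on that of bipolar cell markers, so the retinal sum is not one of pigment epithelium alone. Skeletal muscle markers reached 35400 CPM and rod markers 23600 CPM in single eyecups. In retinas the rod markers summed to 52900 to 72400 CPM and skeletal muscle markers to at most 9.16 CPM. Libraries that stood far from their group's median profile were 1 Efemp1ki/ki eyecup at 9 months, 1 Efemp1ki/ki retina at 3 months and 1 Wt retina at 17 months.

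The eyecup held a wider set of Wnt ligands than the retina. On the authors' TPM scale, which corrects for transcript length, 27 members averaged at least 1 TPM in the eyecup (13 ligands, 10 receptors and 4 Sfrp genes). In the retina 22 did (9 ligands, 10 receptors and 3 Sfrp genes). The ligands together summed to 231 TPM in the eyecup and 31.9 TPM in the retina. The receptors summed to 188 TPM in the eyecup and 105 TPM in the retina, and the Sfrp genes to 108 TPM in the eyecup and 6.86 TPM in the retina. In the order of mean TPM the eyecup was led by Wnt4 at 74.6 ± 15.6 TPM (SD, n = 45), a ligand known for kidney and Müllerian duct development. Fzd6, a planar polarity receptor, followed at 68.5 ± 15.0 TPM and Sfrp1 at 68.4 ± 13.4 TPM. These 3 overlapped in range across libraries, from 43.6 to 105 TPM for Wnt4, 37.0 to 102 for Fzd6 and 41.4 to 95.5 for Sfrp1. Next in the eyecup were Wnt7b at 44.6 ± 11.3 TPM, Wnt10a at 23.3 ± 5.10 and Fzd7 at 22.3 ± 3.17. The retina was led by receptors. Fzd5, known for eye development, averaged 43.0 ± 2.95 TPM there (SD, n = 48), above the norrin receptor Fzd4 at 13.7 ± 1.33. Fzd3, known for axon guidance, averaged 10.9 ± 2.40 TPM in the retina, Fzd10 10.5 ± 1.64 and Wnt2b, a ligand of the embryonic ciliary margin, 10.3 ± 1.03. The retinal ranges of Fzd5 (38.3 to 50.1 TPM) and Fzd4 (11.4 to 16.9 TPM) did not overlap, while those of Fzd4, Fzd3, Fzd10 and Wnt2b did.

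**Figure D1:**
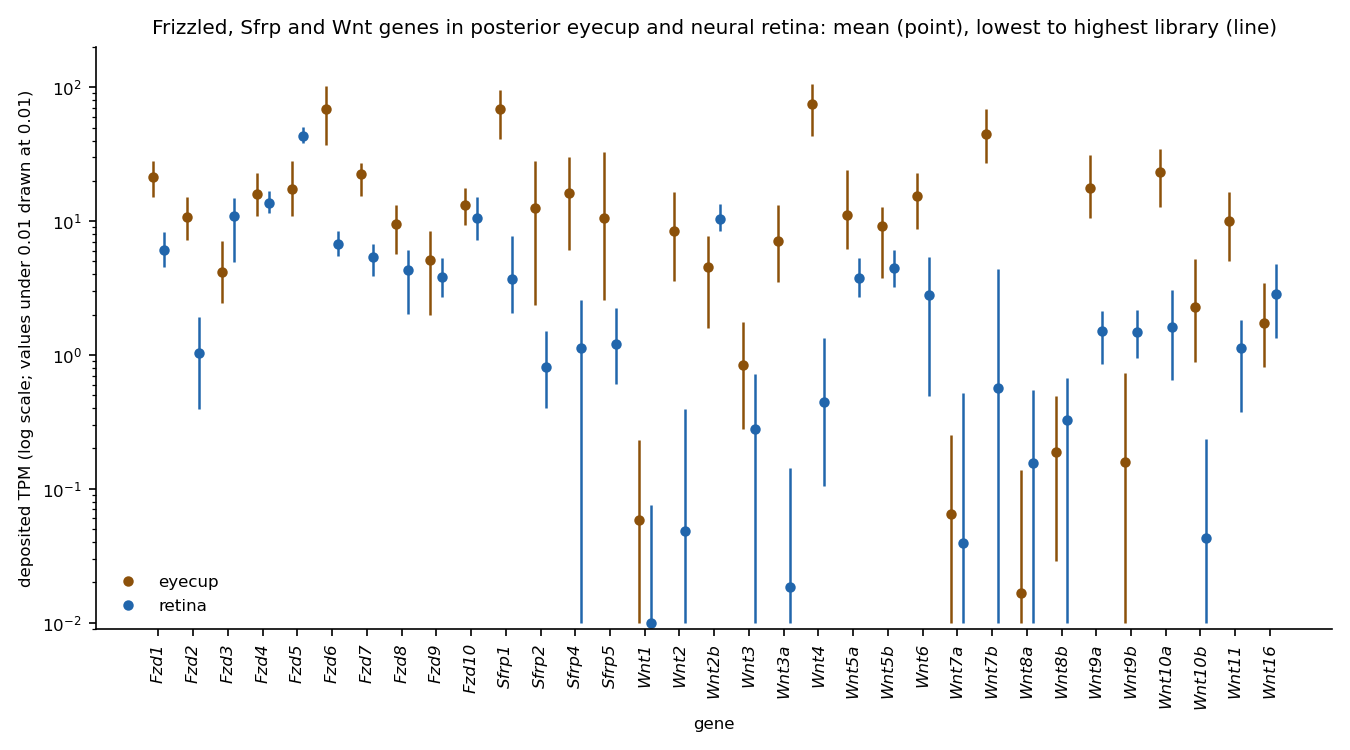
Mean TPM of each of the 33 genes in eyecups and in retinas on a log axis, with a line to the lowest and highest library; values under 0.01 are drawn at 0.01. Wnt4, Fzd6 and Sfrp1 lead in the eyecup at 74.6, 68.5 and 68.4 TPM, and Fzd5 in the retina at 43.0 TPM.

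Set against the retina in a joint fit of the 12 groups, 24 of the 30 members tested were higher in the eyecup and 4 were lower. Among all 19210 genes 94.7% were called between the tissues, 47.7% higher and 47% lower, so a call alone says little here. Of the 30, 25 had passed the filter on low counts in each tissue's own fit, and 20 of these were higher and 4 lower. The largest differences among the 25 were those of Wnt4 at 8.13 ± 0.10 (log2 fold change eyecup over retina, SE) and Wnt7b at 7.26 ± 0.22. Wnt2, Wnt3, Wnt3a and Wnt10b entered the joint fit through the eyecup alone, so that a higher value there was built into their entry. Wnt3a, the usual laboratory activator of β-catenin signalling, had 9866 estimated counts over 45 eyecups, against 19 over 48 retinas, 34 of which had 0. Wnt2 had 33 and Wnt10b 26 over the retinas, too few to fix the size of a fold. Their fitted values, 8.82 for Wnt3a, 8.01 for Wnt2 and 6.31 for Wnt10b, became 2.96, 3.11 and 1.59 with limma on log2(TPM + 1), a scale that understates changes of low genes and on which the median of all genes was -0.517. Wnt4 and Wnt7b gave 5.70 and 4.97 on that scale, above Wnt3a, and the order of these ligands therefore depends on the scale. The members lower in the eyecup were Wnt9b at -2.74 ± 0.16, Fzd3 at -0.69 ± 0.06, Fzd5 at -0.64 ± 0.03 and Wnt2b at -0.50 ± 0.07. Wnt8b and Wnt16 did not pass. The labels do not say whether eyecups and retinas came from the same mice, and the joint fit treats all libraries as independent. In bulk tissue, fewer cells of a type and less RNA per cell cannot be told apart, and this holds for every result that follows.

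In the eyecup most of the tested ligands were called lower at 17 than at 3 months. With the marker covariates given below, Wnt2, Wnt4, Wnt6, Wnt9a and Wnt10a lost their calls. Of the 29 members tested, 10 fell and 2 rose between 3 and 17 months as the mean of both genotypes (edgeR quasi-likelihood test, Benjamini-Hochberg adjusted p under 0.05 over 18003 genes). The background was 20.7% of genes called, 9.13% lower and 11.6% higher. The fallers were 9 of 15 tested Wnt ligands and 1 of 10 receptors, Fzd6. The risers were Fzd10 and Sfrp5. The median log2 fold change was -0.37 over the ligands, 0.03 over the receptors, 0.15 over the Sfrp genes and 0.05 over all genes tested. Within genotypes, 5 members fell in Efemp1ki/ki eyecups, where 3.57% of genes were called and 0.967% were lower. In Wt eyecups 4 fell, with 5.88% of genes called and 3.16% lower. Without the 2 Efemp1ki/ki eyecups at 3 months that had an extreme trend with GC content, a choice made after seeing the data, 1 member fell in Efemp1ki/ki eyecups. With GC offsets per library 2 did. The shares of all genes called in these settings are not given here. The trend was not confined to those 2 libraries. Its slope, relative to the mean of the eyecups, ranged from 0.0473 to 0.841 in Efemp1ki/ki eyecups at 3 months. At 17 months it ranged from -0.0998 to 0.275 in Efemp1ki/ki eyecups, and in Wt eyecups at 3 months from -0.102 to -0.0298. Wnt1, Wnt7a, Wnt8a and Wnt8b, with mean levels of 0.0167 to 0.187 TPM, were too low for a test in the eyecup.

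**Figure D2:**
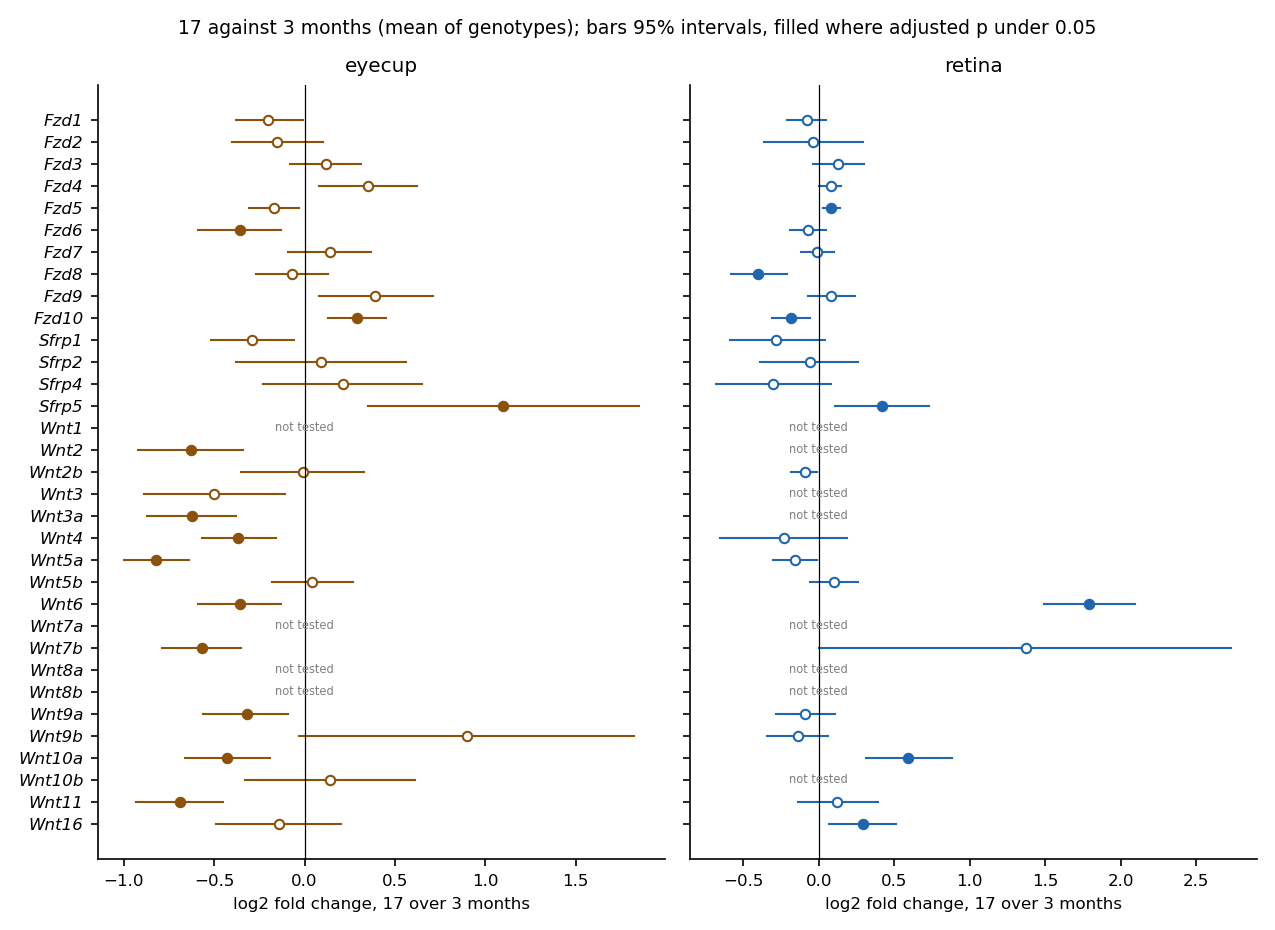
Log2 fold change of each gene at 17 over 3 months (mean of the genotypes) in the eyecup, left, and the retina, right, with 95% intervals; filled points have an adjusted p under 0.05, and genes too low for a test are marked. In the eyecup Wnt5a lies lowest at -0.82, and in the retina Wnt6 lies highest at 1.79.

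Wnt5a and Wnt11 are ligands best known for signalling without β-catenin, Wnt5a through the receptor Ror2 among others. Wnt5a measured 29.0 to 38.0 CPM (median 31.8) at 3 months, 16.6 to 27.3 CPM (median 20.4) at 9 months and 13.4 to 24.5 CPM (median 21.0) at 17 months in Efemp1ki/ki eyecups. Wt eyecups had Wnt5a at 32.3 to 50.6 CPM (median 37.3) at 3 months, 16.3 to 26.1 CPM (median 20.4) at 9 months and 14.5 to 28.0 CPM (median 19.9) at 17 months. At 17 months, Wnt5a in 7 of 7 Efemp1ki/ki and 8 of 8 Wt libraries lay below the 3-month median of the same genotype, and the 17- and 3-month ranges overlapped in neither genotype. The log2 fold change of Wnt5a at 17 over 3 months was -0.82 ± 0.09 (SE), adjusted p = 2.42e-08, with -0.70 ± 0.13 in Efemp1ki/ki mice (adjusted p = 0.000546) and -0.94 ± 0.13 in Wt mice (adjusted p = 1.68e-05). Wnt11 measured 11.7 to 16.4 CPM (median 13.6) at 3 months, 7.26 to 10.4 CPM (median 8.89) at 9 months and 4.18 to 13.1 CPM (median 8.69) at 17 months in Efemp1ki/ki eyecups. Wt eyecups had Wnt11 at 10.2 to 15.5 CPM (median 14.1) at 3 months, 4.56 to 9.62 CPM (median 7.24) at 9 months and 4.55 to 11.4 CPM (median 7.84) at 17 months. For Wnt11, 7 of 7 Efemp1ki/ki and 8 of 8 Wt libraries at 17 months were below their genotype's 3-month median, while the 17- and 3-month ranges overlapped in both genotypes. Wnt11 changed by a log2 fold of -0.69 ± 0.12 (SE), adjusted p = 0.000112, with -0.59 ± 0.17 in Efemp1ki/ki mice (adjusted p = 0.0435) and -0.79 ± 0.18 in Wt mice (adjusted p = 0.00573). For both genes the 9-month medians were already below those at 3 months in each genotype. The age tests compared 17 with 3 months only, so a steady fall was not tested. Of the ligands that fell, Wnt3a, Wnt4, Wnt5a, Wnt6, Wnt7b, Wnt9a and Wnt10a had their lowest median at 9 months in Efemp1ki/ki eyecups. In Wt eyecups Wnt4 and Wnt11 did, and the others were lowest at 17 months.

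Wnt3a, Wnt2 and Wnt7b are ligands for which β-catenin signalling is well described, Wnt2 in the lung and Wnt7b in regression of the hyaloid vessels in the mouse. Wnt3a measured 10.3 to 17.4 CPM (median 13.6) at 3 months, 5.37 to 12.6 CPM (median 7.84) at 9 months and 6.75 to 11.6 CPM (median 9.96) at 17 months in Efemp1ki/ki eyecups. Wt eyecups had Wnt3a at 10.8 to 19.2 CPM (median 11.4) at 3 months, 5.35 to 13.2 CPM (median 9.21) at 9 months and 5.85 to 9.33 CPM (median 7.86) at 17 months. Of the Wnt3a values at 17 months, 7 of 7 Efemp1ki/ki and 8 of 8 Wt ones stood below the 3-month median of their genotype, and the 17- and 3-month ranges overlapped in Efemp1ki/ki mice but did not overlap in Wt mice. Wnt3a had a log2 fold change of -0.62 ± 0.13 (SE), adjusted p = 0.000572, with -0.51 ± 0.17 in Efemp1ki/ki mice (adjusted p = 0.0938) and -0.74 ± 0.18 in Wt mice (adjusted p = 0.0132). Wnt2 measured 7.54 to 16.6 CPM (median 14.1) at 3 months, 4.76 to 12.3 CPM (median 8.31) at 9 months and 4.42 to 12.4 CPM (median 7.40) at 17 months in Efemp1ki/ki eyecups. Wt eyecups had Wnt2 at 6.12 to 12.6 CPM (median 10.7) at 3 months, 5.07 to 12.7 CPM (median 9.59) at 9 months and 4.91 to 8.40 CPM (median 6.79) at 17 months. At 17 months, Wnt2 in 7 of 7 Efemp1ki/ki and 8 of 8 Wt libraries lay below the 3-month median of the same genotype, and the 17- and 3-month ranges overlapped in both genotypes. Wnt2 gave -0.63 ± 0.15 (SE), adjusted p = 0.00255, with -0.71 ± 0.20 in Efemp1ki/ki mice (adjusted p = 0.0437) and -0.56 ± 0.21 in Wt mice (adjusted p = 0.0958). Wnt7b measured 80.6 to 120 CPM (median 106) at 3 months, 48.6 to 95.8 CPM (median 63.9) at 9 months and 48.8 to 90.0 CPM (median 70.2) at 17 months in Efemp1ki/ki eyecups. Wt eyecups had Wnt7b at 72.4 to 113 CPM (median 85.6) at 3 months, 40.3 to 91.9 CPM (median 72.7) at 9 months and 47.1 to 76.5 CPM (median 59.5) at 17 months. For Wnt7b, 7 of 7 Efemp1ki/ki and 8 of 8 Wt libraries at 17 months were below their genotype's 3-month median, while the 17- and 3-month ranges overlapped in both genotypes. The value for Wnt7b was -0.57 ± 0.11 (SE), adjusted p = 0.000449, with -0.53 ± 0.16 in Efemp1ki/ki mice (adjusted p = 0.0456) and -0.60 ± 0.16 in Wt mice (adjusted p = 0.0226). A call in 1 genotype and not in the other is no difference between them, and the test of that difference is given with the genotype results.

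The promoters of Wnt3a (chr11:59290702-59291001, minus strand) and Wnt2 (chr6:18030396-18030695, minus strand) are shown because these ligands fell together in the eyecup. Each runs from 250 bases before to 50 after the gene's start in RefSeq on build GRCm38.p6, 5′ to 3′ on the gene's strand, with GC boxes (GGGCGG on either strand, read as CCGCCC on the other) in capitals. The Wnt3a window has 9 GC boxes, 45 CpG dinucleotides and 86.3% G and C, and that of Wnt2 has 2 GC boxes, 27 CpG and 65.7%.
Wnt3a: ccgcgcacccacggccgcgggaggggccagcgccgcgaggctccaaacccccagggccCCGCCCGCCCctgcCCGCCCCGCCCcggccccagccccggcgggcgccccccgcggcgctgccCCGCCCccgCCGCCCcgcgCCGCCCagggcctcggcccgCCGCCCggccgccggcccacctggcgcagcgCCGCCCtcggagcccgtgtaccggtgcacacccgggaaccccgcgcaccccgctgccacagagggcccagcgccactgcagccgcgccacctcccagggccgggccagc
Wnt2: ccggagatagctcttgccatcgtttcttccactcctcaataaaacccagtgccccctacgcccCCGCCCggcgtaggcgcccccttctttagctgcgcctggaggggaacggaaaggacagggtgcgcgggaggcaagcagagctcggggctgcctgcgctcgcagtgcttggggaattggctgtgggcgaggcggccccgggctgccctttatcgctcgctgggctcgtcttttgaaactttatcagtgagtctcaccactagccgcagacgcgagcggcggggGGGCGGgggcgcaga
RefSeq promoters were matched for 23 members (26 windows). The others were Fzd2, Fzd3, Fzd6, Fzd8, Sfrp1, Sfrp4, Wnt5a, Wnt7b, Wnt8a and Wnt10a. Of the 26 windows 20 held a GC box, as did 35.7% of all 32851 windows of that length. The median number of CpG dinucleotides was 28 in the members' windows and 7 in all. The TCF/LEF core (CTTTGNN with A or T at each N, either strand) was in 4 of 26 member windows and 16.9% of all, and a TATA box (TATAAA, either strand) in 2 of 26 and 13.6%. Neither printed window holds a TCF/LEF core or a TATA box. These are matches of letters and not measured binding.

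Wnt10a, known from teeth and skin appendages, and its neighbour Wnt6 lie 6193 bases apart on chromosome 1, on the same strand. Wnt10a measured 23.9 to 38.4 CPM (median 32.6) at 3 months, 15.4 to 29.4 CPM (median 18.5) at 9 months and 14.9 to 24.9 CPM (median 23.1) at 17 months in Efemp1ki/ki eyecups. Wt eyecups had Wnt10a at 20.4 to 25.5 CPM (median 23.3) at 3 months, 11.6 to 27.8 CPM (median 20.9) at 9 months and 12.4 to 27.3 CPM (median 18.7) at 17 months. Of the Wnt10a values at 17 months, 7 of 7 Efemp1ki/ki and 7 of 8 Wt ones stood below the 3-month median of their genotype, and the 17- and 3-month ranges overlapped in both genotypes. Wnt10a gave a log2 fold change of -0.43 ± 0.12 (SE), adjusted p = 0.0105, with -0.57 ± 0.17 in Efemp1ki/ki mice (adjusted p = 0.0417) and -0.28 ± 0.17 in Wt mice (adjusted p = 0.313). Wnt6 measured 11.2 to 20.0 CPM (median 16.4) at 3 months, 8.48 to 13.3 CPM (median 11.1) at 9 months and 7.35 to 20.1 CPM (median 11.7) at 17 months in Efemp1ki/ki eyecups. Wt eyecups had Wnt6 at 10.7 to 16.8 CPM (median 13.4) at 3 months, 7.53 to 15.0 CPM (median 13.1) at 9 months and 8.08 to 13.3 CPM (median 11.5) at 17 months. At 17 months, Wnt6 in 6 of 7 Efemp1ki/ki and 8 of 8 Wt libraries lay below the 3-month median of the same genotype, and the 17- and 3-month ranges overlapped in both genotypes. Wnt6 gave -0.36 ± 0.12 (SE), adjusted p = 0.0272. Both genes fell in the eyecup as the mean of the genotypes.

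Wnt4 and Wnt9a, the second known from joint development, also fell. Wnt4 measured 169 to 248 CPM (median 223) at 3 months, 104 to 190 CPM (median 144) at 9 months and 119 to 216 CPM (median 180) at 17 months in Efemp1ki/ki eyecups. Wt eyecups had Wnt4 at 170 to 231 CPM (median 180) at 3 months, 91.8 to 192 CPM (median 152) at 9 months and 111 to 203 CPM (median 155) at 17 months. For Wnt4, 7 of 7 Efemp1ki/ki and 7 of 8 Wt libraries at 17 months were below their genotype's 3-month median, while the 17- and 3-month ranges overlapped in both genotypes. Its log2 fold change was -0.37 ± 0.11 (SE), adjusted p = 0.0131. Wnt9a measured 30.0 to 40.6 CPM (median 35.2) at 3 months, 20.3 to 57.5 CPM (median 27.4) at 9 months and 20.6 to 37.1 CPM (median 31.4) at 17 months in Efemp1ki/ki eyecups. Wt eyecups had Wnt9a at 25.7 to 46.6 CPM (median 30.4) at 3 months, 15.6 to 37.1 CPM (median 26.3) at 9 months and 17.0 to 29.1 CPM (median 24.5) at 17 months. Of the Wnt9a values at 17 months, 6 of 7 Efemp1ki/ki and 8 of 8 Wt ones stood below the 3-month median of their genotype, and the 17- and 3-month ranges overlapped in both genotypes. Wnt9a gave -0.32 ± 0.12 (SE), adjusted p = 0.0492, close to the threshold. Wnt3a and Wnt9a are head-to-head neighbours on chromosome 11, 16175 bases apart. The other 6 tested ligands did not pass. Wnt3 gave -0.50 ± 0.20 (SE), adjusted p = 0.0655 and Wnt9b 0.90 ± 0.47 (SE), adjusted p = 0.174, while Wnt16, Wnt2b, Wnt5b and Wnt10b lay between -0.14 ± 0.18 for Wnt16 and 0.14 ± 0.24 for Wnt10b.

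Among the receptors, Fzd6 fell and Fzd10 rose. Fzd6 measured 100 to 154 CPM (median 137) at 3 months, 76.8 to 186 CPM (median 129) at 9 months and 84.1 to 153 CPM (median 115) at 17 months in Efemp1ki/ki eyecups. Wt eyecups had Fzd6 at 126 to 181 CPM (median 132) at 3 months, 80.3 to 204 CPM (median 127) at 9 months and 80.7 to 142 CPM (median 95.7) at 17 months. At 17 months, Fzd6 in 6 of 7 Efemp1ki/ki and 7 of 8 Wt libraries lay below the 3-month median of the same genotype, and the 17- and 3-month ranges overlapped in both genotypes. The log2 fold change of Fzd6 was -0.36 ± 0.12 (SE), adjusted p = 0.0241. Fzd10 measured 18.4 to 24.6 CPM (median 19.8) at 3 months, 15.1 to 19.8 CPM (median 17.8) at 9 months and 17.9 to 31.6 CPM (median 24.6) at 17 months in Efemp1ki/ki eyecups. Wt eyecups had Fzd10 at 16.4 to 21.1 CPM (median 19.0) at 3 months, 14.1 to 24.3 CPM (median 18.3) at 9 months and 18.5 to 30.6 CPM (median 24.2) at 17 months. For Fzd10, 5 of 7 Efemp1ki/ki and 7 of 8 Wt libraries at 17 months were above their genotype's 3-month median, while the 17- and 3-month ranges overlapped in both genotypes. Fzd10 gave 0.29 ± 0.08 (SE), adjusted p = 0.0108. Fzd7 measured 39.3 to 53.6 CPM (median 45.3) at 3 months, 33.1 to 48.1 CPM (median 39.0) at 9 months and 29.7 to 65.7 CPM (median 53.0) at 17 months in Efemp1ki/ki eyecups. Wt eyecups had Fzd7 at 36.9 to 50.6 CPM (median 46.2) at 3 months, 27.0 to 51.8 CPM (median 42.0) at 9 months and 26.0 to 71.1 CPM (median 52.8) at 17 months. Fzd7, known for roles in stem cells and the early embryo, did not pass, at 0.14 ± 0.12 (SE), adjusted p = 0.401, and its ages overlapped. The other receptors had log2 fold changes between -0.20 ± 0.09 for Fzd1 and 0.39 ± 0.16 for Fzd9, none past the threshold.

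Of the Sfrp genes, Sfrp5 rose with a wide spread between libraries. Sfrp5 measured 2.32 to 17.5 CPM (median 4.86) at 3 months, 3.13 to 16.9 CPM (median 6.71) at 9 months and 1.87 to 34.2 CPM (median 7.68) at 17 months in Efemp1ki/ki eyecups. Wt eyecups had Sfrp5 at 3.13 to 10.2 CPM (median 4.89) at 3 months, 2.17 to 14.0 CPM (median 8.07) at 9 months and 2.53 to 33.1 CPM (median 9.92) at 17 months. Of the Sfrp5 values at 17 months, 6 of 7 Efemp1ki/ki and 6 of 8 Wt ones stood above the 3-month median of their genotype, and the 17- and 3-month ranges overlapped in both genotypes. Its log2 fold change was 1.10 ± 0.38 (SE), adjusted p = 0.036, and this call was lost under 5 of 9 alternatives. Sfrp1 measured 114 to 182 CPM (median 151) at 3 months, 97.4 to 189 CPM (median 141) at 9 months and 102 to 175 CPM (median 136) at 17 months in Efemp1ki/ki eyecups. Wt eyecups had Sfrp1 at 133 to 200 CPM (median 152) at 3 months, 89.2 to 210 CPM (median 151) at 9 months and 87.5 to 177 CPM (median 120) at 17 months. Sfrp1, known with Sfrp2 from optic cup patterning, gave -0.29 ± 0.12 (SE), adjusted p = 0.0679, which does not pass. Sfrp2 and Sfrp4 gave 0.09 ± 0.24 and 0.21 ± 0.22.

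**Figure D3:**
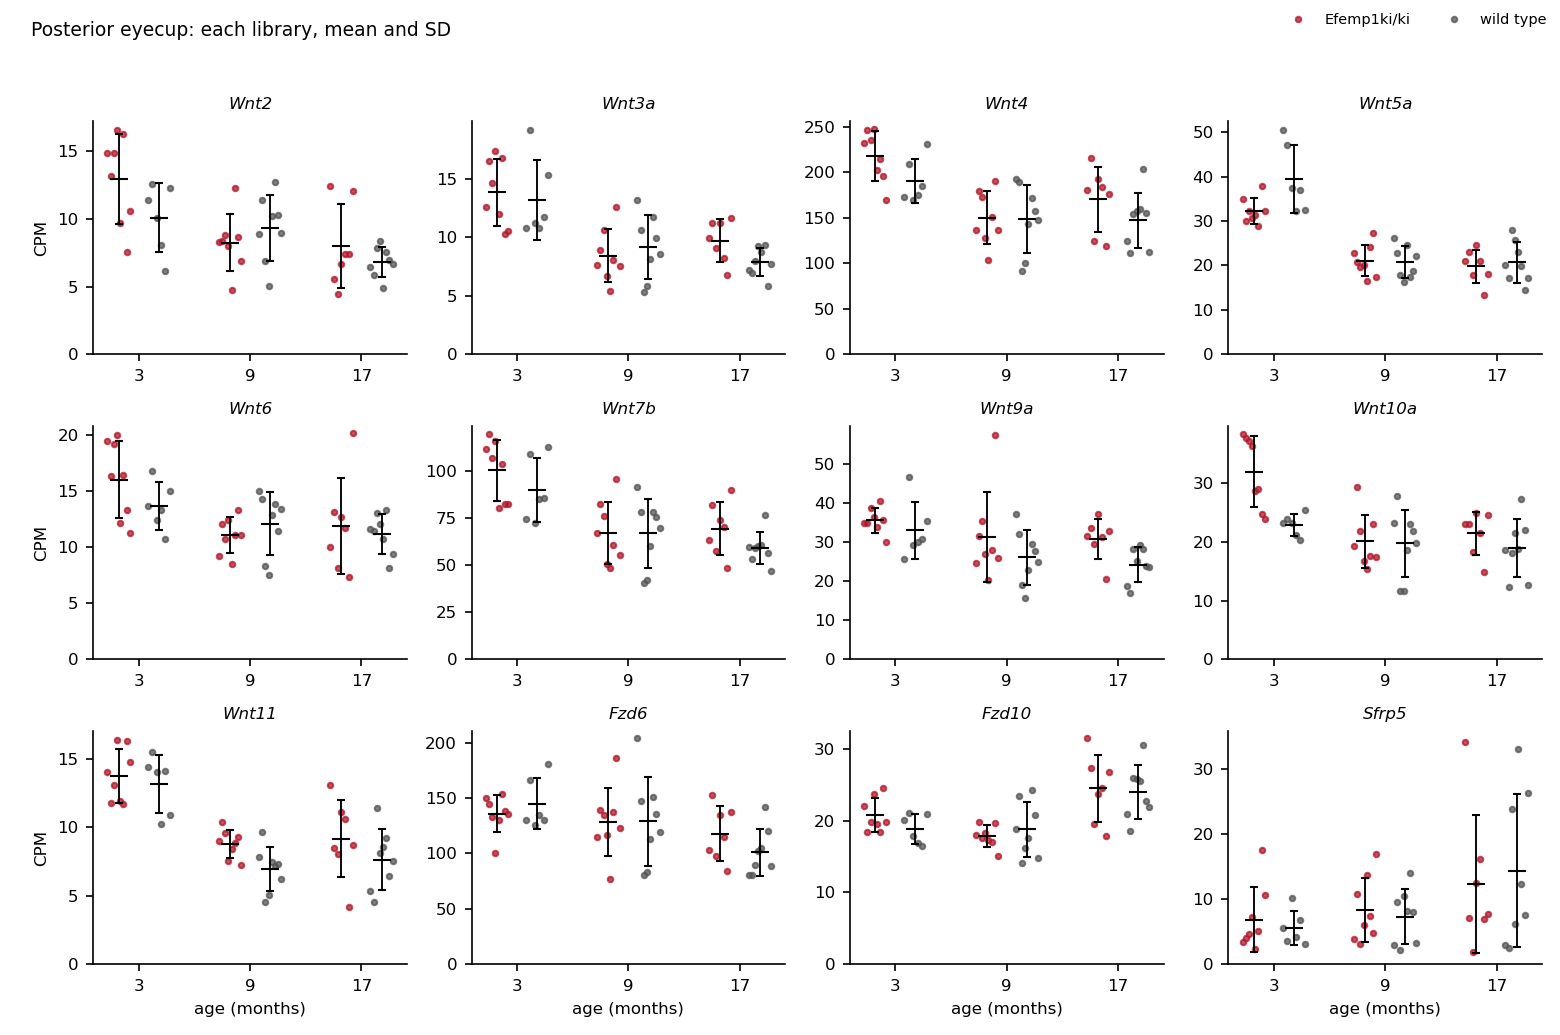
CPM of the 12 genes called with age in the eyecup, 1 point a library, with mean and SD, at 3, 9 and 17 months, and with Efemp1ki/ki libraries left of Wt libraries. The 17- and 3-month libraries of Wnt5a do not overlap in either genotype.

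Markers of eyecup tissue also moved with age, where 11.6% of all genes rose and 9.13% fell. Among 12 ocular surface epithelium markers 6 fell and none rose, with a median log2 fold change of -0.34. Their sum was 24700 to 51000 CPM (median 38400) at 17 months, against 40400 to 53400 CPM (median 48800) at 3 months, in Efemp1ki/ki eyecups. In Wt eyecups it was 23300 to 42000 CPM (median 29900) at 17 months, against 35800 to 54800 CPM (median 41400) at 3 months. Of 10 markers of corneal stroma and scleral fibroblasts 4 fell, of 9 tested lens markers 7 fell, and of 10 skeletal muscle markers 5 rose, with a median of 0.91. The summed lens level did not fall in the median. It was 503 CPM at 17 months against 430 CPM at 3 months in Efemp1ki/ki eyecups, and 456 against 385 CPM in Wt eyecups. At 17 months 3 of the 10 listed lens markers averaged under 1 CPM in Efemp1ki/ki eyecups and 8 of 10 in Wt eyecups. No marker of these lists was at 0 in every eyecup library of a group. With skeletal muscle, rod and ocular surface epithelium levels as covariates, 6 members were called in place of 12, with the share of all genes called not given here. Wnt5a, Wnt11, Wnt3a, Wnt7b and Fzd10 kept their calls there and Wnt5b gained one at 0.33 (adjusted p = 0.0248), while 7 members lost them. Of these, Wnt4 stood at -0.13, Wnt10a at -0.09 and Sfrp5 at 0.15 with the covariates, much closer to 0 than above, whereas Wnt2 at -0.54, Wnt6 at -0.29, Wnt9a at -0.25 and Fzd6 at -0.20 changed less in size. With GC offsets per library Wnt6, Wnt9a and Wnt10a missed the threshold at -0.32, -0.34 and -0.34 (adjusted p = 0.102, 0.0724 and 0.117). Without the eyecups of extreme GC trend Wnt6, Wnt9a and Sfrp5 missed it at -0.29, -0.30 and 1.07 (adjusted p = 0.0706, 0.0693 and 0.054), sizes near those above in both settings. Whether these markers have a part in the falls beyond that was not tested.

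In the retina the members moved in both directions, and 1 stood far from the rest. Of 25 members tested, 5 rose and 2 fell between 3 and 17 months as the mean of the genotypes, against a background of 36.4% of 17240 genes called (19.1% higher, 17.3% lower). The members' share was below that background, a gap that rests on only 25 genes and was not tested. The risers were Wnt6, Wnt10a, Wnt16, Sfrp5 and Fzd5, and the fallers Fzd8 and Fzd10. The median log2 fold change was -0.04 over the members and 0 over all genes. Within genotypes 4 members were called in Efemp1ki/ki retinas (18.8% of genes) and 2 in Wt retinas (17.8% of genes). Without the libraries that stood apart 4 were called in Wt retinas, with the share of all genes not given here. Wnt1, Wnt2, Wnt3, Wnt3a, Wnt7a, Wnt8a, Wnt8b and Wnt10b, with mean levels of 0.00398 to 0.325 TPM, were too low for a test.

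Wnt6, at chr1:74771892-74785322, plus strand, rose most. Wnt6 measured 0.311 to 1.18 CPM (median 0.759) at 3 months, 0.869 to 3.02 CPM (median 1.65) at 9 months and 1.66 to 3.60 CPM (median 2.68) at 17 months in Efemp1ki/ki retinas. Wt retinas had Wnt6 at 0.572 to 1.17 CPM (median 0.840) at 3 months, 0.571 to 2.63 CPM (median 1.85) at 9 months and 2.52 to 4.13 CPM (median 3.02) at 17 months. At 17 months, Wnt6 in 8 of 8 Efemp1ki/ki and 8 of 8 Wt libraries lay above the 3-month median of the same genotype, and the 17- and 3-month ranges overlapped in neither genotype. The log2 fold change was 1.79 ± 0.15 (SE), adjusted p = 1.31e-13 (3.45-fold higher), with 1.78 ± 0.22 in Efemp1ki/ki mice (adjusted p = 3.36e-08) and 1.80 ± 0.21 in Wt mice (adjusted p = 6.57e-09). The 9-month medians lay between those of 3 and 17 months in both genotypes. Wnt6 reached 1622 estimated counts over the 48 retinas, a low level. Its promoter window (chr1:74771642-74771941, plus strand) is printed because this is the largest age change of the members called, with GC boxes in capitals as before, of which it has 6, beside 31 CpG and no TCF/LEF core.
Wnt6: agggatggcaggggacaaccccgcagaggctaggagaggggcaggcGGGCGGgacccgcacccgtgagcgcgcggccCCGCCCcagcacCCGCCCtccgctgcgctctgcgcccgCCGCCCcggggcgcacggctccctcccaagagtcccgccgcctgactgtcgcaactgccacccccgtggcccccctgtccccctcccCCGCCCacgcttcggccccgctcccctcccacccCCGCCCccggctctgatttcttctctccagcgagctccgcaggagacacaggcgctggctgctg
Wnt10a, its downstream neighbour at chr1:74791516-74804179, plus strand, also rose. Wnt10a measured 0.558 to 1.55 CPM (median 1.05) at 3 months, 0.853 to 1.53 CPM (median 1.21) at 9 months and 1.21 to 2.21 CPM (median 1.5) at 17 months in Efemp1ki/ki retinas. Wt retinas had Wnt10a at 0.516 to 1.59 CPM (median 1.00) at 3 months, 0.471 to 1.67 CPM (median 0.998) at 9 months and 0.719 to 2.16 CPM (median 1.58) at 17 months. For Wnt10a, 8 of 8 Efemp1ki/ki and 7 of 8 Wt libraries at 17 months were above their genotype's 3-month median, while the 17- and 3-month ranges overlapped in both genotypes. Wnt10a gave a log2 fold change of 0.59 ± 0.15 (SE), adjusted p = 0.0013. Other genes within 100 kb that were called were Cyp27a1, a sterol hydroxylase, at 0.44 ± 0.05, Prkag3, an AMP-kinase subunit, at 0.55 ± 0.09, and Ttll4 at 0.11 ± 0.03, while Cdk5r2 and Gm16582 were not. An antisense gene, Gm29539, overlaps Wnt6, and the strand setting of the counting is not given in the sources used here, so their reads may not be told apart. The same holds for Wnt5a with Gm2670, Wnt7b with AU022754, Wnt5b with Fbxl14, Sfrp2 with Gm26771 and Fzd5 with Gm38058, and the intronic Gm43846 lies within Wnt2b. Gm29539 averaged 0.0576 CPM in retinas, against 1.83 CPM for Wnt6.

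Wnt16, known from bone, was the ligand with both an age and a genotype call in the retina. Wnt16 measured 0.710 to 1.46 CPM (median 1.07) at 3 months, 1.38 to 2.66 CPM (median 1.89) at 9 months and 1.22 to 1.99 CPM (median 1.54) at 17 months in Efemp1ki/ki retinas. Wt retinas had Wnt16 at 1.31 to 2.70 CPM (median 1.54) at 3 months, 1.89 to 3.23 CPM (median 2.37) at 9 months and 1.43 to 2.61 CPM (median 1.82) at 17 months. Median Wnt16 was highest at 9 months in both genotypes. Of the Wnt16 values at 17 months, 8 of 8 Efemp1ki/ki and 6 of 8 Wt ones stood above the 3-month median of their genotype, and the 17- and 3-month ranges overlapped in both genotypes. Its log2 fold change at 17 over 3 months was 0.29 ± 0.11 (SE), adjusted p = 0.0372, with 0.50 ± 0.17 in Efemp1ki/ki mice (adjusted p = 0.03) and 0.09 ± 0.15 in Wt mice (adjusted p = 0.895). This age call was lost under 3 of 9 alternatives. The Wnt16 window (chr6:22287977-22288276, plus strand) has no GC box, 10 CpG and 58% G and C, and is printed beside that of Wnt6 for the contrast in composition.
Wnt16: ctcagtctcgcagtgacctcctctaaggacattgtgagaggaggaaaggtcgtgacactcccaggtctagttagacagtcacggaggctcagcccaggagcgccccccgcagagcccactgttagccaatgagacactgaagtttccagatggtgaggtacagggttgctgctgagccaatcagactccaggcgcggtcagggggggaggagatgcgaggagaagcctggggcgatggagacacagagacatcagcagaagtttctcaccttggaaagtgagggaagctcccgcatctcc

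Fzd5 and Fzd8 are related receptors known from eye development, and they moved in opposite directions. Fzd8 measured 2.93 to 6.2 CPM (median 5.01) at 3 months, 3.37 to 4.84 CPM (median 3.70) at 9 months and 2.67 to 4.89 CPM (median 3.62) at 17 months in Efemp1ki/ki retinas. Wt retinas had Fzd8 at 3.98 to 6.38 CPM (median 5.05) at 3 months, 3.62 to 5.22 CPM (median 4.27) at 9 months and 2.08 to 4.80 CPM (median 4.26) at 17 months. At 17 months, Fzd8 in 8 of 8 Efemp1ki/ki and 8 of 8 Wt libraries lay below the 3-month median of the same genotype, and the 17- and 3-month ranges overlapped in both genotypes. The log2 fold change of Fzd8 was -0.40 ± 0.09 (SE), adjusted p = 0.000839. Fzd5 measured 94.2 to 104 CPM (median 97.8) at 3 months, 87.3 to 102 CPM (median 95.6) at 9 months and 88.1 to 111 CPM (median 103) at 17 months in Efemp1ki/ki retinas. Wt retinas had Fzd5 at 96.3 to 107 CPM (median 100) at 3 months, 92.2 to 101 CPM (median 96.2) at 9 months and 101 to 124 CPM (median 107) at 17 months. For Fzd5, 7 of 8 Efemp1ki/ki and 8 of 8 Wt libraries at 17 months were above their genotype's 3-month median, while the 17- and 3-month ranges overlapped in both genotypes. Fzd5, the highest member in the retina, gave 0.08 ± 0.03 (SE), adjusted p = 0.0136, a small change measured with little spread that was 0.02 with GC offsets per library (adjusted p = 0.678). Fzd10 measured 11.8 to 16.2 CPM (median 13.9) at 3 months, 8.17 to 13.0 CPM (median 11.5) at 9 months and 10.5 to 14.6 CPM (median 12.1) at 17 months in Efemp1ki/ki retinas. Wt retinas had Fzd10 at 12.9 to 17.0 CPM (median 15.4) at 3 months, 9.39 to 11.8 CPM (median 10.6) at 9 months and 11.0 to 18.4 CPM (median 13.3) at 17 months. Of the Fzd10 values at 17 months, 7 of 8 Efemp1ki/ki and 6 of 8 Wt ones stood below the 3-month median of their genotype, and the 17- and 3-month ranges overlapped in both genotypes. Fzd10 gave -0.18 ± 0.06 (SE), adjusted p = 0.0171, opposite in sign to the eyecup, and was -0.08 with marker covariates (adjusted p = 0.362).

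The other 4 abundant retinal members did not pass, and Sfrp5 did. Fzd4 measured 28.7 to 34.7 CPM (median 33.0) at 3 months, 28.4 to 40.9 CPM (median 34.8) at 9 months and 30.8 to 36.6 CPM (median 35.9) at 17 months in Efemp1ki/ki retinas. Wt retinas had Fzd4 at 29.7 to 33.5 CPM (median 31.5) at 3 months, 30.8 to 35.6 CPM (median 33.2) at 9 months and 29.7 to 37.8 CPM (median 33.0) at 17 months. Fzd4, through which norrin drives retinal vessel growth, gave 0.08 ± 0.04 (SE), adjusted p = 0.0955. At 17 months, Fzd4 in 6 of 8 Efemp1ki/ki and 6 of 8 Wt libraries lay above the 3-month median of the same genotype, and the 17- and 3-month ranges overlapped in both genotypes. Fzd3 measured 10.1 to 19.3 CPM (median 17.0) at 3 months, 9.19 to 15.8 CPM (median 13.5) at 9 months and 13.2 to 18.9 CPM (median 16.0) at 17 months in Efemp1ki/ki retinas. Wt retinas had Fzd3 at 7.38 to 16.0 CPM (median 13.8) at 3 months, 7.93 to 16.5 CPM (median 14.3) at 9 months and 13.4 to 20.0 CPM (median 16.0) at 17 months. For Fzd3, 3 of 8 Efemp1ki/ki and 7 of 8 Wt libraries at 17 months were above their genotype's 3-month median, while the 17- and 3-month ranges overlapped in both genotypes. Fzd3 gave 0.13 ± 0.09 (SE), adjusted p = 0.252. Wnt2b measured 11.1 to 14.4 CPM (median 13.1) at 3 months, 11.0 to 14.3 CPM (median 11.9) at 9 months and 10.6 to 13.9 CPM (median 12.2) at 17 months in Efemp1ki/ki retinas. Wt retinas had Wnt2b at 10.9 to 14.4 CPM (median 13.1) at 3 months, 11.5 to 14.3 CPM (median 12.6) at 9 months and 10.8 to 13.5 CPM (median 12.3) at 17 months. Of the Wnt2b values at 17 months, 6 of 8 Efemp1ki/ki and 7 of 8 Wt ones stood below the 3-month median of their genotype, and the 17- and 3-month ranges overlapped in both genotypes. Wnt2b gave -0.09 ± 0.04 (SE), adjusted p = 0.0955. Fzd6 measured 8.71 to 12.8 CPM (median 9.50) at 3 months, 8.12 to 11.0 CPM (median 9.47) at 9 months and 7.28 to 11.3 CPM (median 9.08) at 17 months in Efemp1ki/ki retinas. Wt retinas had Fzd6 at 9.09 to 10.7 CPM (median 9.56) at 3 months, 7.99 to 11.3 CPM (median 9.49) at 9 months and 7.60 to 11.6 CPM (median 9.73) at 17 months. At 17 months, Fzd6 in 5 of 8 Efemp1ki/ki and 4 of 8 Wt libraries lay below the 3-month median of the same genotype, and the 17- and 3-month ranges overlapped in both genotypes. Fzd6 gave -0.07 ± 0.06 (SE), adjusted p = 0.366, and its age change in eyecup minus retina was -0.30 ± 0.13 (SE), adjusted p = 0.087. Sfrp5 measured 0.355 to 1.05 CPM (median 0.549) at 3 months, 0.460 to 1.06 CPM (median 0.710) at 9 months and 0.415 to 1.30 CPM (median 0.924) at 17 months in Efemp1ki/ki retinas. Wt retinas had Sfrp5 at 0.417 to 1.03 CPM (median 0.663) at 3 months, 0.621 to 1.33 CPM (median 0.861) at 9 months and 0.559 to 1.18 CPM (median 0.869) at 17 months. For Sfrp5, 6 of 8 Efemp1ki/ki and 7 of 8 Wt libraries at 17 months were above their genotype's 3-month median, while the 17- and 3-month ranges overlapped in both genotypes. Sfrp5, the riser among the Sfrp genes, gave 0.42 ± 0.16 (SE), adjusted p = 0.0346, a call lost under 5 of 9 alternatives. Wnt7b gave 1.37 ± 0.70 (SE), adjusted p = 0.12, with an unusually large spread and 0 counts in 6 of the 48 retinas. The other members tested did not pass: the ligands Wnt4, Wnt5a, Wnt9b, Wnt9a, Wnt5b and Wnt11 lay between -0.23 ± 0.21 for Wnt4 and 0.12 ± 0.13 for Wnt11, the receptors Fzd1, Fzd2, Fzd7 and Fzd9 between -0.08 ± 0.07 for Fzd1 and 0.08 ± 0.08 for Fzd9, and Sfrp1, Sfrp2 and Sfrp4 between -0.30 ± 0.19 for Sfrp4 and -0.06 ± 0.17 for Sfrp2.

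**Figure D4:**
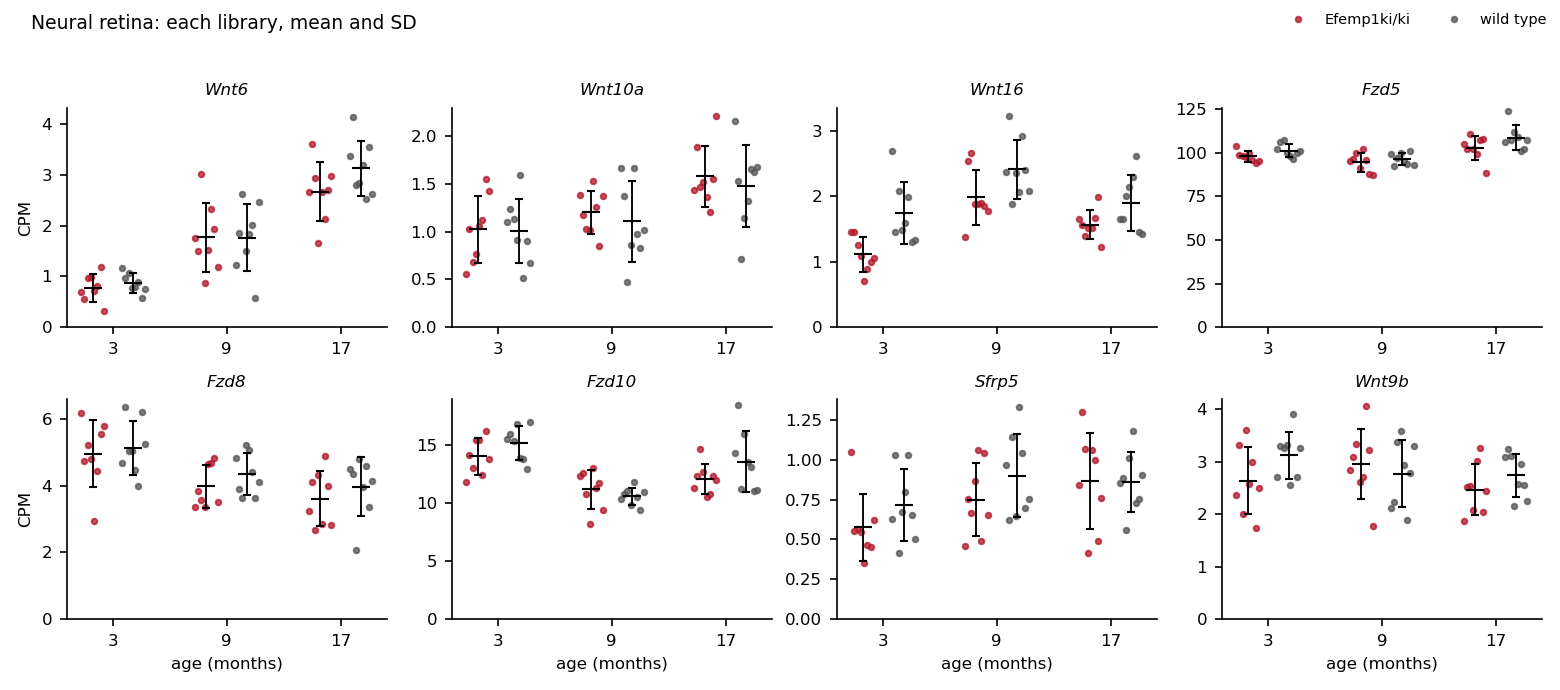
CPM in the retina of the 7 genes called with age and of Wnt9b, 1 point a library, with mean and SD, at 3, 9 and 17 months, and with Efemp1ki/ki libraries left of Wt libraries. The Wnt6 libraries at 17 months lie above those at 3 months in both genotypes, while Wnt16 is highest at 9 months.

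Retinal cell markers moved with age as well, where 19.1% of all genes rose and 17.3% fell. Of 10 rod markers 8 fell and 1 rose, of 7 retinal ganglion cell markers 6 fell, and of 7 microglia and macrophage markers 6 rose. The rod markers summed to 53000 to 65400 CPM (median 57000) at 17 months, against 57600 to 67000 CPM (median 63200) at 3 months, in Efemp1ki/ki retinas, and to 55200 to 72400 CPM (median 62700) at 17 months, against 64200 to 72100 CPM (median 68600) at 3 months, in Wt retinas. The microglia and macrophage markers summed to 40.6 to 57.0 CPM (median 44.8) at 17 months, against 25.1 to 31.8 CPM (median 29.3) at 3 months, in Efemp1ki/ki retinas, and to 35.2 to 54.0 CPM (median 43.0) at 17 months, against 28.4 to 35.5 CPM (median 32.0) at 3 months, in Wt retinas. Of 10 tested ocular surface epithelium markers 4 fell and none rose, and 3 to 6 of the 12 listed averaged under 1 CPM in each retinal group. Of 11 pigment epithelium markers 3 rose, but Rlbp1 and Trpm1 among the 11 also mark Müller glia and bipolar cells. Their level, used below as a covariate, is therefore not one of pigment epithelium alone. No marker of these 5 lists was at 0 in every library of a retinal group. With pigment epithelium, lens and rod levels as covariates Wnt6 kept its call. The part of ocular surface epithelium, ganglion cell and microglial markers in these changes was not tested.

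The age changes of the tissues differed in 7 of the 25 members that had passed the filter in both tissues, 6 lower and 1 higher in the eyecup than in the retina, where 19.1% of all genes differed (9.31% lower, 9.81% higher). Wnt3, which had passed in the eyecup alone and had 291 estimated counts over the 48 retinas, was also called in the joint fit, but has no usable age change in the retina. The largest of the 7 was Wnt6 at -2.16 ± 0.20 (log2, eyecup minus retina, SE; adjusted p = 1.86e-14), which fell in the eyecup and rose in the retina. Wnt10a, with the same opposite directions, differed by -1.03 ± 0.19 (adjusted p = 3.66e-05). The eyecup side of both was less firm. The eyecup call of Wnt6 was lost under 4 of 9 alternatives and that of Wnt10a under 2 of 9. With marker covariates Wnt10a stood at -0.09 in the eyecup. Wnt5a, which fell in the eyecup and did not pass in the retina at -0.16 ± 0.07 (SE), adjusted p = 0.0856, differed by -0.67 ± 0.12. The higher member was Fzd10 at 0.47 ± 0.10. The joint fit gives each gene 1 dispersion for both tissues, although the tissues differ in spread. For Wnt7b, also among the 7, the biological coefficient of variation was 0.212 in the eyecup and 1.32 in the retina. Its joint value of -1.94 ± 0.58 may therefore carry too small an SE.

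The genotype comparison asks what the Efemp1 knock-in changes. In the eyecup no member was called between Efemp1ki/ki and Wt mice, at 3 months (3.07% of genes called), 9 months (0.00555%), 17 months (0.0611%) or as the mean of the ages (4.48%). At an unadjusted p under 0.05, 3 members differed as the mean of the ages, all higher in Efemp1ki/ki eyecups, out of 29 tested, where 19.5% of all genes reached that level. These were Wnt9a at 0.24 ± 0.10 (SE), adjusted p = 0.151, Wnt10a at 0.23 ± 0.10 (SE), adjusted p = 0.168 and Wnt11 at 0.22 ± 0.10 (SE), adjusted p = 0.194. The ligands' median was 0.14, beside 0.02 for all genes. DESeq2 called no member either. With marker levels as covariates, 1 member was called at 3 months, Wnt10a at 0.36 (adjusted p = 0.0205), and 1 as the mean of the ages, Wnt9a at 0.20 (adjusted p = 0.0347). At 3 months the slope of the trend with GC content also differed by genotype. It ranged from 0.0473 to 0.841 in Efemp1ki/ki eyecups and from -0.102 to -0.0298 in Wt eyecups. The fit with covariates has no GC correction, and the part of GC content in its calls was not tested. The share of all genes called in that fit is not given here. The ocular surface epithelium markers had a median log2 difference of 0.16, with 0 of 12 called, and 3 of 11 pigment epithelium markers were lower in Efemp1ki/ki eyecups.

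**Figure D5:**
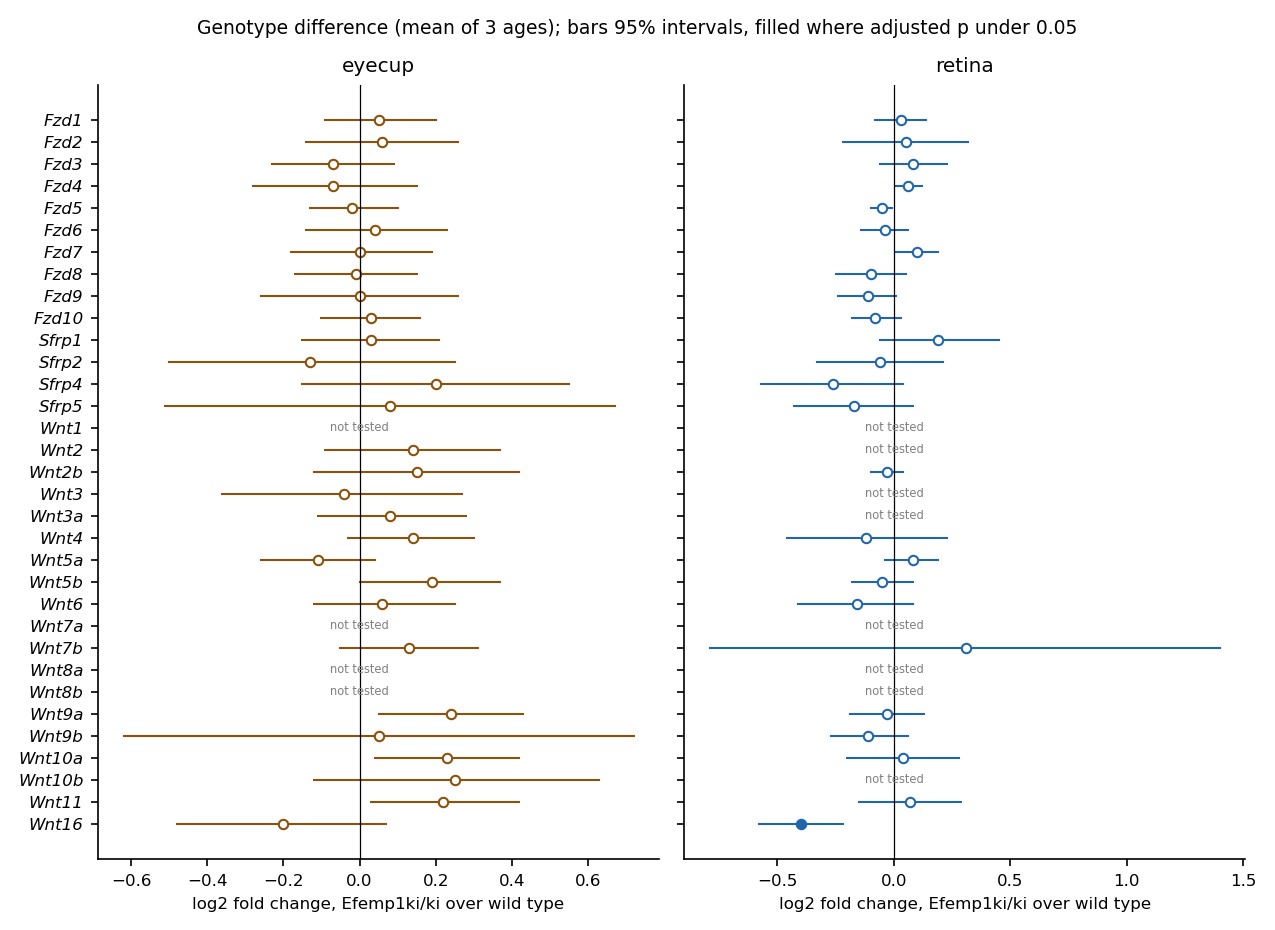
Log2 fold change of each gene in Efemp1ki/ki over Wt mice as the mean of 3 ages, eyecup left and retina right, with 95% intervals; filled points have an adjusted p under 0.05. Wnt16 in the retina, at -0.40, is the only filled point.

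In the retina Wnt16 was lower in Efemp1ki/ki mice. Its 3-month levels were 0.710 to 1.46 CPM (median 1.07) in Efemp1ki/ki retinas, against 1.31 to 2.70 CPM (median 1.54) in Wt retinas. All 8 Efemp1ki/ki libraries lay below the Wt median, and the groups overlapped at the edges. The log2 fold change at 3 months was -0.66 ± 0.17 (SE), adjusted p = 0.0302, 1 member of 25 where 1.83% of genes were called. At 9 months it was -0.29 ± 0.15 (SE), adjusted p = 0.808 and at 17 months -0.25 ± 0.15 (SE), adjusted p = 0.432, with 6 of 8 Efemp1ki/ki libraries below the Wt median at 9 months and 7 of 8 at 17 months. As the mean of the ages it was -0.40 ± 0.09 (SE), adjusted p = 0.00644, again the single member called, where 5.24% of genes were. No member was called at 9 months (0% of genes) or 17 months (0.406%). At 3 months it missed the threshold with marker covariates, at -0.64 (adjusted p = 0.376), and without a filter on low counts, at -0.67 (adjusted p = 0.0515), with a size close to that above, whereas the mean over ages held in all 9 alternatives, from -0.43 to -0.24. Wnt16 reached 1543 estimated counts over the 48 retinas.

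Lens RNA was far higher in single Efemp1ki/ki retinas than in any Wt retina, while the group medians were close. Of 8 tested lens markers 7 were higher in Efemp1ki/ki retinas as the mean of the ages, with a median log2 fold change of 3.73. The highest single libraries reached 933, 1330 and 184 CPM of summed lens markers at 3, 9 and 17 months in Efemp1ki/ki retinas, against 68.0, 86.9 and 38.8 CPM in Wt retinas, while the group medians lay between 35.3 and 42.3 CPM. Of 7 ganglion cell markers 4 were lower, of 8 Müller glia markers 3 and of 6 bipolar cell markers 2. Among all genes 5.24% were called in either direction. With lens, pigment epithelium and rod levels as covariates Wnt16 still passed as the mean of the ages. The part of ganglion cell, Müller glia and bipolar cell markers was not tested.

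The age change did not differ detectably between genotypes for any member. No gene of either tissue passed in this interaction test with edgeR (0% of genes), where 560 eyecup and 690 retinal genes had an unadjusted p under 0.05, none of them a member. DESeq2 called 1 eyecup gene and 0 retinal genes. The genotype difference did not differ between tissues for any of 30 members either (3.23% of genes called, and 3 members at an unadjusted p under 0.05, a level that 18.5% of all genes reached).

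Other genes of the pathway were counted from lists of co-receptors, inhibitors, R-spondins, transducers, nuclear factors, feedback targets and polarity genes, against the same backgrounds. Of 83 such genes tested for age in the eyecup 5 rose and 16 fell, where 11.6% of all genes rose and 9.13% fell. There 2 of 13 secreted inhibitors rose and 5 fell. Dkk2, which binds Lrp5 and Lrp6, had medians of 10.9 CPM at 17 months, against 24.1 CPM at 3 months, in Efemp1ki/ki eyecups, and 11.0 CPM at 17 months, against 27.0 CPM at 3 months, in Wt eyecups, a log2 fold change of -1.13 ± 0.17 (SE), adjusted p = 4.2e-06. Wif1, which binds Wnt proteins directly, fell by 1.10 ± 0.19 on the log2 scale (adjusted p = 6.92e-05). Frzb, a relative of the Sfrp genes named here after its value was seen, rose by 1.24 ± 0.25 (adjusted p = 0.00051). Of 12 planar polarity genes 6 fell and 1 rose, among the fallers Scrib at -0.28 ± 0.08 and Celsr1 at -0.38 ± 0.11. Of 15 feedback targets 3 fell, with Dkk1 at -1.57 ± 0.32 and Nkd1 at -0.32 ± 0.08. Axin2, the target most used as a readout of β-catenin signalling and likewise named after its value was seen, gave -0.09 ± 0.09 (SE), adjusted p = 0.458. Of 16 transducers 1 fell, Axin1 at -0.19 ± 0.05, and of 12 co-receptor and secretion genes 1 fell, Gpc3 at -0.42 ± 0.10. Of 12 nuclear factors 1 rose, Pygo1 at 0.54 ± 0.12, and 2 fell, one of them Tcf7l1 at -0.37 ± 0.09. Of 11 R-spondin, norrin and receptor genes Lgr6 rose by 0.65 ± 0.23, the single call, which was lost under 6 of 9 alternatives, with values from 0.18 to 0.66. With marker covariates Axin1 (-0.06), Pygo1 (0.25), Tcf7l1 (-0.25), Scrib (-0.14) and Celsr1 (-0.19) also missed the threshold, as did Scrib (-0.23) and Celsr1 (-0.36) with GC offsets.

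In the ageing retina 13 of 76 tested genes of these lists rose and 15 fell, 36.8% of them beside 36.4% of all genes (19.1% higher, 17.3% lower). The largest called changes of these lists were those of Rnf43, Rspo2 and Ror2. Rnf43, a ubiquitin ligase that removes frizzleds from the cell surface, measured 8.38 to 12.6 CPM (median 9.95) at 17 months, against 2.04 to 4.00 CPM (median 3.11) at 3 months, in Efemp1ki/ki retinas. Wt retinas had 9.10 to 12.2 CPM (median 10.5) at 17 months, against 3.01 to 3.98 CPM (median 3.49) at 3 months. The ages did not overlap in either genotype, and the log2 fold change was 1.63 ± 0.07 (SE), adjusted p = 1.51e-24. Rspo2, a secreted factor that neutralises Rnf43 and its relative Znrf3, gave -1.53 ± 0.15 (SE), adjusted p = 1.17e-11. Of 8 tested R-spondin, norrin and receptor genes 1 rose and 4 fell. Ror2, a receptor for Wnt5a, rose by 0.93 ± 0.10 (SE), adjusted p = 2.17e-10, while of the other 11 co-receptor and secretion genes Gpc6 alone was called, at -0.12 ± 0.04. Of 10 inhibitors 1 rose, Kremen2 at 0.27 ± 0.10, and 3 fell, with the smallest p for Sostdc1 at -0.59 ± 0.10. Of 16 transducers 4 rose, among them Dvl3 at 0.20 ± 0.04, and 3 fell, among them Ctnnb1, the β-catenin gene, at -0.11 ± 0.02. Of 12 nuclear factors 3 rose, led by Tle2 at 0.34 ± 0.07, and 2 fell, led by Pygo1 at -0.20 ± 0.05. Of 13 feedback targets 3 rose and 1 fell, Fgf9 at -0.17 ± 0.03. Axin2 was among the risers, at 0.09 ± 0.03 (SE), adjusted p = 0.0314. Of 12 polarity genes 2 rose, Celsr3 at 0.30 ± 0.05 and Celsr2 at 0.15 ± 0.04, and 1 fell. Of these calls Gpc6 was lost under 4 of 9 alternatives (-0.14 to 0.02), Kremen2 under 3 (0.16 to 0.38), Celsr2 under 2 (0.07 to 0.15), and Pygo1 (-0.26 to -0.06) and Fgf9 (-0.20 to -0.04) under 1 each.

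Between genotypes few of these genes passed, 6 of 76 in the retina (5.24% of all genes) and 3 of 83 in the eyecup (4.48%), as the mean of the ages. In the retina the calls were Celsr3 at 0.17 ± 0.04 and Intu at 0.12 ± 0.04 (2 of 12 polarity genes), Nkd1 at -0.14 ± 0.04 (1 of 13 feedback targets), Ryk at -0.09 ± 0.03, Gsk3a at -0.08 ± 0.02 and Tle4 at -0.08 ± 0.02. Gsk3a missed the threshold under 8 of 9 alternatives (-0.08 to -0.03), Intu (0.10 to 0.14), Ryk (-0.10 to -0.06) and Tle4 (-0.09 to -0.03) under 3 each, and Celsr3 and Nkd1 under 1 each. No secreted inhibitor and no R-spondin, norrin or receptor gene passed there. In the eyecup the calls were Sostdc1, a secreted inhibitor, at -0.39 ± 0.12, Csnk1e, a kinase that acts on dishevelled, at 0.14 ± 0.04 and Celsr2 at 0.20 ± 0.06. Each was lost under most alternatives, Sostdc1 under 6 of 9 (-0.43 to -0.30) and Csnk1e (0.05 to 0.15) and Celsr2 (0.10 to 0.20) under 5 of 9.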

How the data were processed

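Per the labels' protocols, the TruSeq Stranded mRNA kit was used on total RNA, and the submitters' processing notes name build GRCm38.p4. Which aligner, counter, annotation version and strand setting were used is not given in the sources used here. Estimated counts per gene were deposited by the authors. Of these values 37.9% have a fractional part, and all were rounded for testing. The authors also deposited a TPM table in which the protein-coding genes of a library add up to 1000000 and all genes to between 1016537 and 1047972. These values, scaled by the authors, were therefore treated as a score, for comparing levels between genes and in 1 alternative. Of the columns in each file, 1 fitted no sample label and was left out. Groups came from the labelled tissue, genotype and age.

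Genes were kept by filterByExpr, scaled by TMM and fitted with edgeR 4.0.16 (robust quasi-likelihood F test) in R 4.3.3. Each tissue's 6 groups shared 1 fit, and there was 1 joint fit of all 12 for differences between tissues, in which libraries count as independent, although the labels do not say whether the tissues came from the same mice. The common biological coefficient of variation was 0.309 in the eyecup and 0.0963 in the retina. The joint fit used 1 dispersion per gene for both tissues. Calls were made at an adjusted p under 0.05 (Benjamini-Hochberg, over all genes tested), and SE came from the F statistic. Reads are not independent molecules, so tests rest on the spread between libraries and not on counting error.

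Members and lists were chosen with earlier results of these data known. Members called in a genotype, age or interaction comparison, and the 6 of highest mean TPM per tissue, were described in full, with the 5 largest called differences per direction between tissues and the 2 smallest p-values per pathway list. Alternatives were RLE size factors, no filter on low counts, DESeq2 1.42.0, limma 3.58.1 on log2(TPM + 1) with a pseudocount of 1, a replicate block, GC offsets per library (spline with 5 degrees of freedom, a GC value for 99.6% of genes), marker levels as covariates, and leaving out libraries that stood apart. For these, the distance from the group's median profile lay more than 3 scaled median absolute deviations above the median distance in the tissue. A further alternative, chosen after seeing the data, dropped the 2 eyecups and 4 retinas whose trend with GC content lay more than 3 such deviations from the tissue's median. The scripts were tested on simulated data. Gene positions are those of the deposited table (the same in GENCODE M21 on GRCm38 for 26 of the 33 members and different for 7), strands are from GENCODE, and promoter sequences are from RefSeq (GRCm38.p6).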

Additional observations from a re-analysis of the deposited data

Results flagged for a closer look

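In 17 of 204 combinations of a gene described in full with a group, 1 library stood apart from its group by Dixon's criterion, where chance flags about 1 in 20 groups. The values are log2 CPM.

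Among Efemp1ki/ki retinas at 3 months, library 5 was highest for Fzd6 at 3.68 (next 3.37) and lowest for Fzd8 at 1.57 (next 2.16), and it also stood apart from its group over all genes. In the same group library 2 was lowest for Fzd3 at 3.34 (next 3.99), library 7 for Fzd4 at 4.85 (next 5.00) and library 4 for Fzd7 at 2.6 (next 3.02), while library 8 was highest for Sfrp1 at 3.38 (next 2.76). Among Wt retinas at 3 months, library 6 was lowest for Fzd3 at 2.89 (next 3.73), library 4 for Wnt2b at 3.44 (next 3.67) and library 8 for Wnt9a at 0.28 (next 0.91). In eyecups at 3 months, Efemp1ki/ki library 4 was lowest for Fzd6 at 6.64 (next 7.03) and Wt library 3 highest for Wnt16 at 1.46 (next 0.64).

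At the later ages, Efemp1ki/ki eyecup library 7 at 9 months, which stood apart over all genes, was lowest for Wnt2b at 1.49 (next 2.94). Efemp1ki/ki eyecup library 7 at 17 months was lowest for Wnt9a at 4.36 (next 4.88) and for Wnt11 at 2.08 (next 3.01). Efemp1ki/ki retina library 2 at 9 months was highest for Wnt2b at 3.85 (next 3.63). Wt retinas held the lowest value of Wnt5a at 9 months in library 6, at 2.29 (next 2.73), and of Fzd8 at 17 months in library 3, at 1.08 (next 1.76).

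The change between 3 and 17 months differed between tissues for 8 members in the joint edgeR fit (eyecup minus retina, log2, SE). These were Wnt6 at -2.16 ± 0.20, Wnt7b at -1.94 ± 0.58, Wnt3 at -1.15 ± 0.30, Wnt10a at -1.03 ± 0.19, Wnt11 at -0.82 ± 0.18, Wnt5a at -0.67 ± 0.12, Fzd5 at -0.26 ± 0.07 and Fzd10 at 0.47 ± 0.10. The value of Wnt7b rests on a retinal level with 0 counts in 6 of 48 libraries, and Wnt3 was too low for a test within the retina.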

How the results depend on the processing

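Of 105 single-gene results (members and pathway genes), 64 were called under every alternative run, 1 of 765 values reversed and 120 were no longer called. The differences between tissues among them, in level or age change, had 4 alternatives each, and all held. These were RLE size factors, no filter on low counts, limma and DESeq2. All of these differences are therefore among the 64. They were not put to the GC offsets, covariates, replicate block or leaving out of libraries. In level 94.7% of all genes were called between the tissues. Age and genotype results within a tissue had 9 alternatives each, and every lost or reversed value was among these. The reversed value was that of Gpc6 with age in the retina, 0.02 with limma on log2(TPM + 1).

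With marker covariates the members called fell to 6 for age in the eyecup (12 in the report), became 1 for Efemp1ki/ki against Wt eyecups at 3 months and 1 as the mean of the ages (0 in the report), and 0 for Efemp1ki/ki against Wt retinas at 3 months (1 in the report). Without a filter on low counts that retinal count was also 0, age within Efemp1ki/ki eyecups gave 3 (5 in the report) and age within Wt retinas 1 (2 in the report). Age within Efemp1ki/ki eyecups gave 2 with GC offsets and 1 without the libraries of extreme GC trend. With limma on log2(TPM + 1), age within Wt eyecups gave 10 (4 in the report), age within Wt retinas 5 and the tissue difference in age change 14 (8 in the report, Wnt3 included). Age within Wt retinas gave 4 with DESeq2, 4 without the libraries that stood apart and 4 without those of extreme GC trend. The share of all genes called under each alternative is not given here. A change in these counts, or in those with the replicate block below, therefore cannot be told from a change over all genes. The cause was not tested in any of these.

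Deviations from the group mean were compared between same-numbered Efemp1ki/ki and Wt libraries of the same tissue and age, and correlated between -0.528 and 0.675. The labels do not say that these numbers pair samples, and they were not taken to. Same-numbered eyecups and retinas were not compared, so a pairing of the tissues was not tested. With the replicate block, age within Efemp1ki/ki eyecups gave 1 member and age in the eyecup as the mean of the genotypes 8.

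The biological coefficient of variation, 0.309 in the eyecup and 0.0963 in the retina, limits what the eyecup's tests can detect. Retinal Wnt3a, Wnt2, Wnt10b and Wnt1 are limited by depth, with 19, 33, 26 and 4 estimated counts over 48 libraries.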
